A study of Mus musculus with 4 samples.

Results

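The genes examined encode the potassium channels that repolarize heart muscle cells: Kcnh2, Kcnq1 and Kcne1 (delayed rectifiers), Kcnd2, Kcnd3, Kcnip2 and Kcna5 (transient outward and ultrarapid currents), and Kcnj2, Kcnj3 and Kcnj5 (inward rectifiers). Members were the ATAC-seq peaks that overlapped the body of any of these 10 genes or lay within 20 kb of either gene end, which gave 125 of the 87948 peaks of the series. The peak nearest the limit on the inside lay 19440 bp from Kcnd3 (log2 fold change, mutant over wild type, -0.43), and the nearest outside lay 20065 bp from Kcnq1 (-1.11). ATAC-seq reads chromatin accessibility from the sites where a transposase can insert adapters. The libraries came from mouse hearts labelled P14 (postnatal day 14), with 2 Carm1 mutant libraries and 2 wild-type libraries. Carm1 is an arginine methyltransferase that acts on histones and other proteins as a coactivator. The labels give no allele, Cre driver, strain or sex, and they do not say how many animals went into a library, so p-values here measure the spread between these libraries, which may be partly technical. The source is whole cardiac tissue, and in bulk tissue a changed share of a cell type and a changed accessibility per cell cannot be told apart.

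A cardiac action potential ends when potassium leaves the cell through these channels. In the adult mouse ventricle, fast repolarization rests mainly on the transient outward current, carried by the Kv4 proteins of Kcnd2 and Kcnd3 with the auxiliary subunit of Kcnip2, and on the Kv1.5 channel of Kcna5, while the Kir2.1 channel of Kcnj2 holds the resting potential. The rapid delayed rectifier (Kcnh2, the ERG channel) and the slow delayed rectifier (Kcnq1 with its partner Kcne1) are best known from human long QT syndrome, and in the mouse these currents are more prominent around birth than in the adult. Kcnj3 and Kcnj5 form the acetylcholine-gated channel of the atria and the sinoatrial node.

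RefSeq start-site sequences of build GRCm38.p6 were held for 8 of the 10 genes. Each of the 8 stretches of 250 bases upstream of the start was overlapped by at least part of a peak, though at Kcnj5 only 72 of the 250 bases lay within one. At Kcnd3 and Kcnj5 the strongest peak near the start lies beside the stretch and not over it. The 4 printed here belong to genes with a peak that differed between the genotypes elsewhere in the locus. They are those of Kcna5 (chr6:126535556-126535805, minus strand), Kcnj2 (chr11:111065914-111066163, plus strand), Kcnd3 (chr3:105451640-105451889, plus strand) and Kcnh2 (chr5:24329592-24329841, minus strand). Each is written 5′ to 3′ in the direction of transcription and ends at the base before the start, and capitals mark any match to the motifs named after the sequences.
Kcna5: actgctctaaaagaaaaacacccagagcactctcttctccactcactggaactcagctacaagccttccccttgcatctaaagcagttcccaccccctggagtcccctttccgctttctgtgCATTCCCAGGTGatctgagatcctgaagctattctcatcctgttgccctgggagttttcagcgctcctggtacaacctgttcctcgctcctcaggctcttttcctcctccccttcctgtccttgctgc
Kcnj2: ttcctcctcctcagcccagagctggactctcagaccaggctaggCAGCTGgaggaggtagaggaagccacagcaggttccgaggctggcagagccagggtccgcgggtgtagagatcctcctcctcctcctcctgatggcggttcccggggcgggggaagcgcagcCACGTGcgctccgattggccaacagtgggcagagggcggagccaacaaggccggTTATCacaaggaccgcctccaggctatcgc
Kcnd3: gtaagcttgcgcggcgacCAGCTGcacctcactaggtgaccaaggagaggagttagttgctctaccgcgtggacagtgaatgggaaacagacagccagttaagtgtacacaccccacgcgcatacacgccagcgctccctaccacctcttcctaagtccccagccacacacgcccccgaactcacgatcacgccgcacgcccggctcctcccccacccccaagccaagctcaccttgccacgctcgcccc
Kcnh2: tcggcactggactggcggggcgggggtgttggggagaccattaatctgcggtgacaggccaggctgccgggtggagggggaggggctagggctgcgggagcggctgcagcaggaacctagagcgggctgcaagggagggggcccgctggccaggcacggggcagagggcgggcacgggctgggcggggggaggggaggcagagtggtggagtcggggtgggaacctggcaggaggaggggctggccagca

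Both strands of these upstream stretches were searched for TATAAA (the TATA box), GATAA (the core of GATA factor sites), AGGTCA (a nuclear receptor site), TGANTCA (the AP-1 site), GGAATG (the TEAD factor site), CANNTG (the E-box), the CArG box and the MEF2 box. In Kcna5 the capitals are a GGAATG match on the other strand, directly followed by a CANNTG match without overlap. Of all 32851 stretches of the same length in the table, 12.6% held GGAATG and 66.2% held CANNTG. In Kcnj2 the capitals are 2 CANNTG matches and a GATAA match on the other strand, a motif found in 22.6% of all stretches, and in Kcnd3 they are 1 CANNTG match. Kcnh2 held none of the 8 motifs. Among the 8 member stretches 6 held CANNTG, 1 each held GATAA and GGAATG, and none held TATAAA (12.4% of all), AGGTCA (14.02%), TGANTCA (6.75%), the CArG box (1.47%) or the MEF2 box (2.92%). The stretches differed in CpG content, with 3 CpG dinucleotides in Kcna5, 7 each in Kcnj3 and Kcnj5 and 14 to 22 in the other 5, against a median of 6 over all stretches in the table.

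Total counts in peaks were 16740589 and 15945420 in mutant replicates 1 and 2 and 17508230 and 19091969 in wild-type replicates 1 and 2. Levels are given in CPM, a peak's count relative to the scaled library size. Because the labels do not say which part of Carm1 was altered, no peak at that gene can check the genotype labels. Cardiomyocyte markers were accessible, with peaks at all 6 genes listed (Myh6, Tnnt2, Actn2, Ryr2, Tnni3 and Pln). Their peaks summed to 3564 and 3248 CPM in the mutant libraries and to 3196 and 2981 CPM in the wild-type libraries. The 3 ventricular markers summed to 934.4 and 778.5 CPM in the mutant libraries and to 730.6 and 629.4 CPM in the wild-type libraries, and the 6 endothelial markers to 600.9 and 579.9 CPM in the mutant libraries and to 758.5 and 620.5 CPM in the wild-type libraries. The 5 mural cell markers summed to 348.2 and 417.4 CPM in the mutant libraries and to 314.4 and 324.3 CPM in the wild-type libraries, and the neuron and Schwann cell markers (5 of 6 with a peak) to 271.8 and 248.2 CPM in the mutant libraries and to 219.7 and 207.0 CPM in the wild-type libraries. The sums of these lists other than the endothelial one, and that of the 5 atrial markers, were thus higher in both mutant libraries than in either wild-type library, and endothelial sums were lower, while those of fibroblast, leukocyte and conduction markers overlapped. Both mutant libraries lay above both wild-type libraries at 68.4% of neuron and Schwann, 54.8% of ventricular, 47.1% of mural, 44.4% of atrial and 30.3% of cardiomyocyte marker peaks, against 25.8% of all peaks. At conduction, leukocyte, fibroblast and endothelial marker peaks this share was 34.8%, 23.5%, 21.6% and 12.7%. Both mutant libraries lay below both wild-type libraries at 44.4% of endothelial marker peaks, against 25.7% of all peaks. At the other lists that share ran from 4.76% (ventricular) to 21.7% (conduction). The part of these shifts in the results on the channel genes was not tested.

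The comparison asked whether accessibility at the repolarizing channel genes differed between Carm1 mutant and wild-type hearts. Peaks at delayed rectifier genes tended to be more accessible in the mutant, and peaks at transient outward, ultrarapid and inward rectifier genes tended to be less accessible or showed no common direction. Single peaks passed the threshold at 7 of the 10 genes, 3 higher and 6 lower in the mutant. Those that rose lay at Kcnq1, Kcnh2 and Kcne1, and those that fell lay at Kcnd3 (2 peaks), Kcnj2, Kcnj5, Kcna5 and, for a peak beyond the higher-coordinate end, Kcne1. The other 116 peaks did not pass. The test was the quasi-likelihood test of edgeR over all peaks, with a threshold of 0.05 on the Benjamini-Hochberg adjusted p. Over all peaks 3.05% were called higher and 2.45% lower, and at the channel genes the shares were 2.4% and 4.8%, so the overall rate of calls was close to the background. The median log2 fold change (mutant over wild type) was 0.09 over the 125 peaks and 0 over all peaks to 2 decimals. Each left-out library changed the count of higher peaks, of lower peaks or of both by more than 1.5 times. The median over the 125 peaks ran from -0.064 without mutant replicate 1 to 0.179 without mutant replicate 2. DESeq2 called 1 higher and 4 lower.

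**Figure D1:**
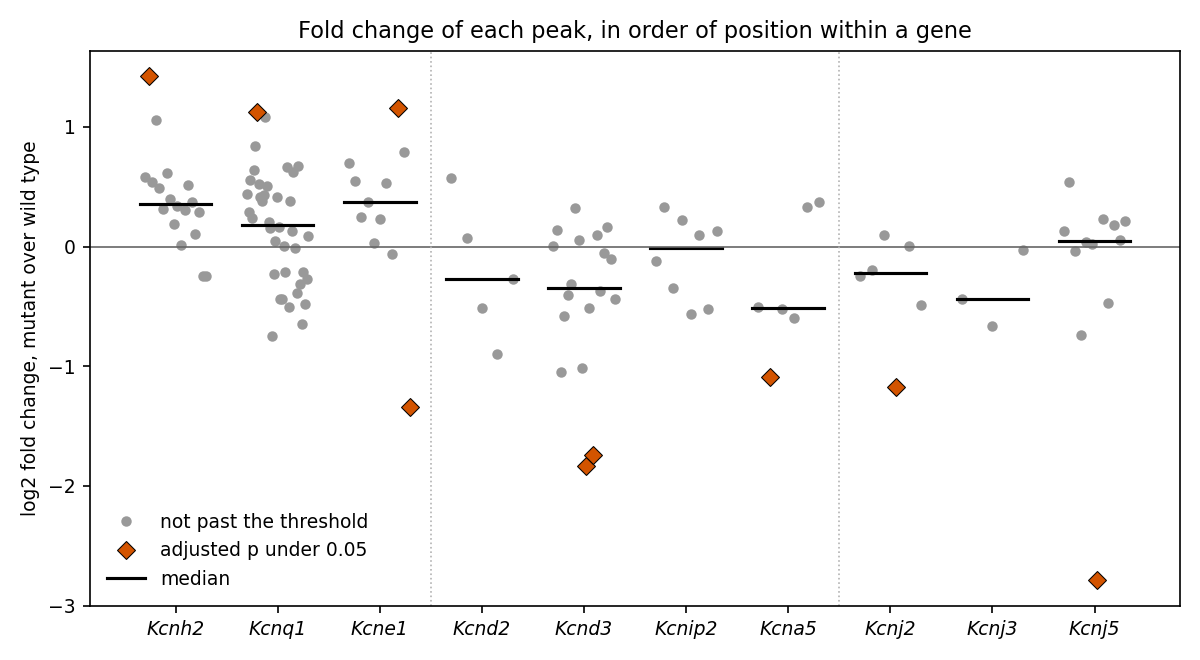
Log2 fold change (mutant over wild type, vertical axis) of each of the 125 peaks, by gene, in order of position from left to right within a gene. Orange diamonds are the 9 peaks with adjusted p under 0.05, grey dots the other 116, and black bars the median of each gene, which runs from -0.52 at Kcna5 to 0.37 at Kcne1.

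The delayed rectifier genes had 67 peaks. Of these 3 rose, 1 fell and 63 did not pass, and 50 had a positive and 17 a negative log2 fold change, with a median of 0.30. Both mutant libraries lay above both wild-type libraries at 37 of the 67 peaks (55.2%), against 25.8% of all peaks, and below them at 7 (10.4%), against 25.7%. At the 37 peaks of the transient outward and ultrarapid genes the picture was the other way round. None rose and 3 fell, and 14 had a positive and 23 a negative log2 fold change, with a median of -0.31. There both mutant libraries lay above both wild-type libraries at 4 peaks (10.8%) and below them at 17 (45.9%). Kcnd3 held 18 of the 37 peaks and 10 of these 17, while the 8 Kcnip2 peaks split into 4 positive and 4 negative. The 21 inward rectifier peaks held 2 that fell and none that rose. Of these peaks 10 had a positive and 11 a negative log2 fold change, with a median of -0.03. The groups did not overlap at 1 peak with the mutant higher (4.76%) and at 8 with the mutant lower (38.1%). These 21 peaks summed to 232.4 and 180.6 CPM in mutant replicates 1 and 2 and to 233.0 and 235.1 CPM in the wild-type libraries. In sum, mutant replicate 1 thus lay close to the wild type and mutant replicate 2 below it. Peaks of a gene share its locus and are not independent, so these shares are descriptions, and the difference between the classes was not tested. The classes follow the currents the proteins carry and were set with earlier results on these data known.

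Kcnh2 encodes the pore-forming subunit of the rapid delayed rectifier, and its locus leaned towards higher accessibility in the mutant. Of its 18 peaks 16 had a positive log2 fold change, with a median of 0.35, and at 12 of them both mutant libraries lay above both wild-type libraries, while at none did both lie below (25.8% and 25.7% of all peaks). The 2 peaks with a negative value, -0.25 and -0.24, lay at the neighbouring gene Nos3, the endothelial nitric oxide synthase. A weak peak 371 bp downstream of the Kcnh2 gene end (chromosome 5, 24318602 to 24319218), within the lncRNA gene Gm15589, had 4.14 and 3.91 CPM in the mutant libraries and 1.87 and 1.14 CPM in the wild-type libraries. Both mutant libraries were above both wild-type libraries there, with a log2 fold change of 1.43 (standard error 0.37, adjusted p = 0.0293 by edgeR), and the call was lost without wild-type replicate 2 (0.271) and with DESeq2 (0.0865). The peak over the start shown above (24328163 to 24330699) had 43.2 and 34.5 CPM in the mutant libraries and 34.7 and 28.0 CPM in the wild-type libraries. The groups overlapped by a narrow margin at this peak, and it did not pass (log2 fold change 0.31, standard error 0.16, adjusted p = 0.280 by edgeR). Kcnh2 lies on the minus strand, so its 5′ end is the higher-coordinate gene end, and the start used above lies inside the gene. The strongest peak of the locus spans that 5′ end (24350157 to 24353688) and was picked after its values were seen. It had 79.7 and 56.4 CPM in the mutant libraries and 53.5 and 51.9 CPM in the wild-type libraries. The groups did not overlap there, but the log2 fold change of 0.37 did not pass (adjusted p = 0.165 by edgeR).

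Kcnq1 encodes the pore of the slow delayed rectifier, and its gene spans chromosome 7 from 143106877 to 143427050. Along it the differences followed position. The 13 peaks in the first 50 kb from the lower-coordinate end all had positive log2 fold changes, from 0.15 to 1.12 with a median of 0.51, and at 11 of them both mutant libraries lay above both wild-type libraries, against 25.8% of all peaks. These 13 peaks summed to 283.1 and 232.8 CPM in the mutant libraries and to 195.9 and 183.2 CPM in the wild-type libraries. The 20 peaks in the rest of the gene body split into 9 positive and 11 negative, with both mutant libraries above both wild-type libraries at 5 and below them at 6, a median of -0.11 and sums of 135.3 and 137.2 CPM in the mutant libraries and 149.7 and 133.4 CPM in the wild-type libraries. The border at 50 kb was set after the values were seen, so the 2 stretches carry no test.

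Within the first stretch a peak 13284 bp from the gene end, measured to its midpoint (143119670 to 143120653), rose to 10.2 and 9.47 CPM in the mutant libraries, against 4.58 and 4.44 CPM in the wild-type libraries. Its libraries agreed closely within each genotype, and the log2 fold change was 1.12 (standard error 0.25, adjusted p = 0.0136 by edgeR). The peak held 2.16% and 2.27% of the locus's counts in the mutant libraries and 1.18% and 1.24% in the wild-type libraries, and the call was lost without wild-type replicate 1 (0.0716) or wild-type replicate 2 (0.110). The broad peak over the lower-coordinate gene end (143106760 to 143109593) had 52.7 and 38.4 CPM in the mutant libraries and 35.9 and 26.2 CPM in the wild-type libraries. The groups did not overlap, though mutant replicate 2 lay close to wild-type replicate 1. The log2 fold change of 0.56 (standard error 0.18) did not pass (adjusted p = 0.0696 by edgeR). With each library left out in turn it ran from 0.308 (without mutant replicate 1) to 0.804 (without wild-type replicate 1). Kcnq1 also holds Kcnq1ot1, an imprinted lncRNA transcribed against it. The peak at the higher-coordinate end of Kcnq1ot1 (143295228 to 143297080), named after its values were seen, had 23.8 and 29.2 CPM in the mutant libraries and 24.8 and 22.5 CPM in the wild-type libraries. The genotypes overlapped at this peak (log2 fold change 0.16, standard error 0.17, adjusted p = 0.636 by edgeR).

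**Figure D2:**
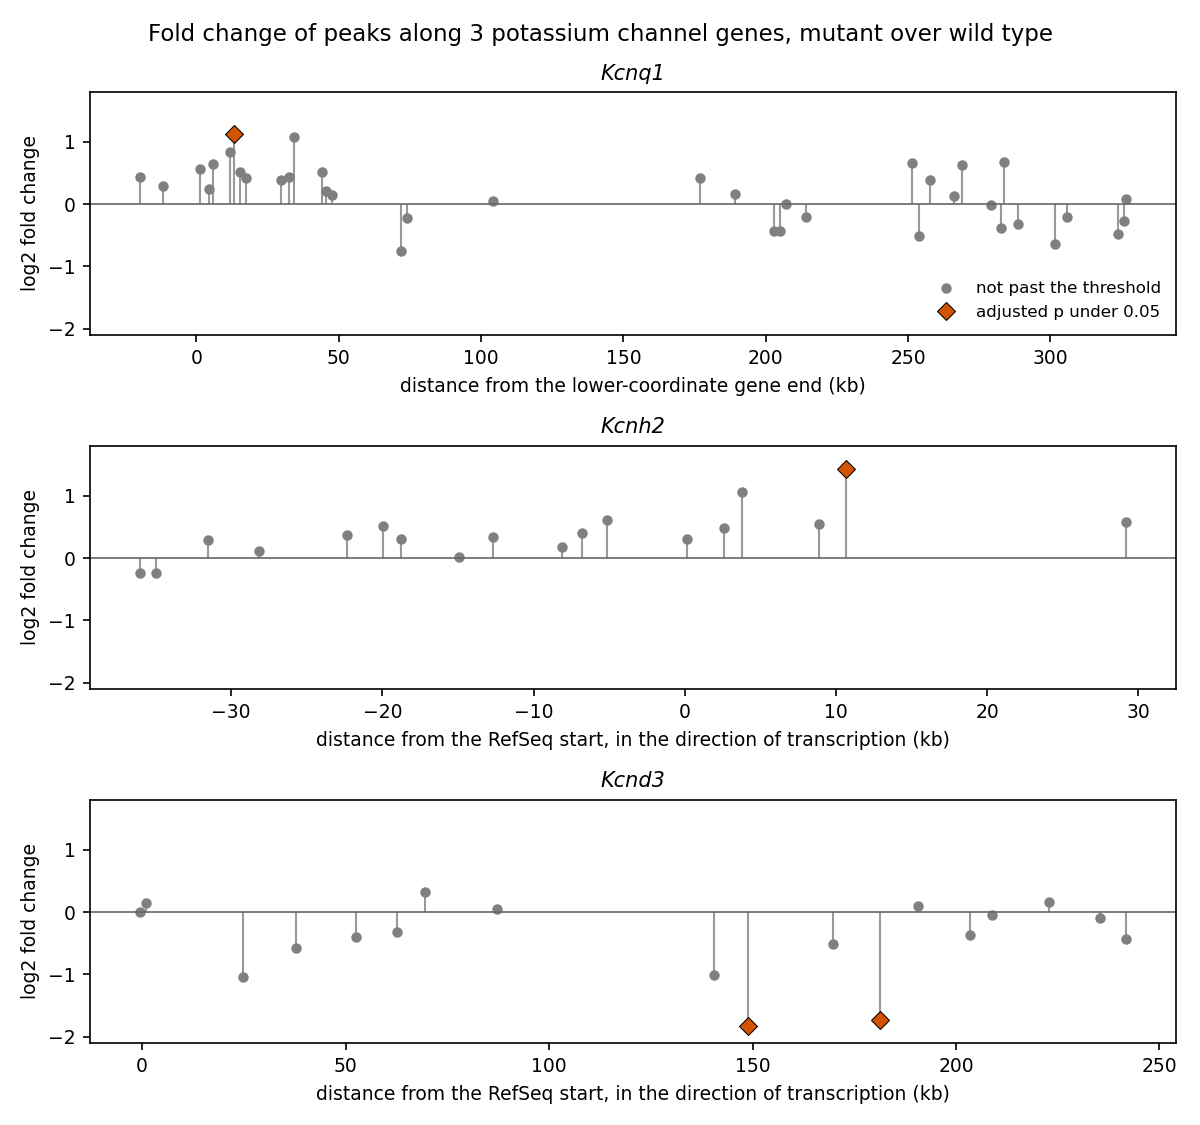
Log2 fold change (mutant over wild type, vertical axes) of peaks against the distance of their midpoint, in kb, from the lower-coordinate end of Kcnq1 (top) and from the RefSeq start of Kcnh2 (middle) and Kcnd3 (bottom). Orange diamonds have adjusted p under 0.05: the values in the first 50 kb of Kcnq1 lie between 0.15 and 1.12, and the 2 called Kcnd3 peaks lie at -1.83 and -1.74.

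Kcne1 encodes the small subunit that slows the gating of the Kcnq1 channel. Of its 11 peaks 9 had positive log2 fold changes, with a median of 0.37, and the 2 that passed went in opposite directions. A peak within the gene and the overlapping lncRNA gene Gm30163 (chromosome 16, 92357878 to 92358357) rose to 6.33 and 4.04 CPM in the mutant libraries, against 2.38 and 2.27 CPM in the wild-type libraries (log2 fold change 1.16, standard error 0.33, adjusted p = 0.0440 by edgeR). A peak 17597 bp beyond the higher-coordinate end, at the lncRNA gene Gm29805 (92377065 to 92377383), fell to 1.95 and 1.58 CPM in the mutant libraries, against 3.96 and 5.01 CPM in the wild-type libraries (log2 fold change -1.34, standard error 0.35, adjusted p = 0.0282 by edgeR). The groups did not overlap at either peak, but neither passed when wild-type replicate 1 (0.155 and 0.0595) or wild-type replicate 2 (0.214 and 0.237) was left out or with DESeq2 (0.125 and 0.0828), and the first also failed without mutant replicate 1 (0.245) and with limma voom (0.0633). The strongest peak at a gene end (92345051 to 92345731) had 41.7 and 41.0 CPM in the mutant libraries and 38.5 and 42.5 CPM in the wild-type libraries. Its log2 fold change was 0.03 (standard error 0.15, adjusted p = 0.933 by edgeR), and the mutant values lay between the wild-type values. It lies at the lower-coordinate end, and which end holds the start was not known. A peak 60 bp from the other end (92358752 to 92359408) was named after its values were seen. It had 9.9 and 7.1 CPM in the mutant libraries and 6.0 and 3.9 CPM in the wild-type libraries. The groups did not overlap there, but the log2 fold change of 0.79 (standard error 0.28) did not pass (adjusted p = 0.101 by edgeR).

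Kcnd3 encodes Kv4.3, a pore subunit of the transient outward current. Of its 18 peaks 12 had negative log2 fold changes, with a median of -0.34. An intragenic peak 148860 bp from the start (chromosome 3, 105600433 to 105601067) fell to 2.86 and 4.61 CPM in the mutant libraries, against 13.6 and 13.0 CPM in the wild-type libraries. That is a log2 fold change of -1.83 (standard error 0.27, adjusted p = 0.000835 by edgeR), a level 3.55-fold lower in the mutant, and the groups were far apart. The peak was called under each of the alternatives run, left-out libraries included. It held 1.5% and 2.56% of the locus's counts in the mutant libraries and 6.73% and 6.37% in the wild-type libraries. A much weaker peak 181332 bp from the start (105633100 to 105633345) had 8 and 17 counts in the mutant libraries and 43 and 54 counts in the wild-type libraries. These counts gave 0.49 and 1.07 CPM in the mutant and 2.43 and 2.79 CPM in the wild type (log2 fold change -1.74, standard error 0.45, adjusted p = 0.0276 by edgeR). This second call was lost without mutant replicate 1 (0.101), wild-type replicate 1 (0.0868) or wild-type replicate 2 (0.196), with DESeq2 (0.117) and with cyclic loess offsets (0.0935).

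The lower values of the Kcnd3 gene body were not seen at its start. The strongest start peak (105452057 to 105453463), which also overlaps the antisense gene Kcnd3os, had 16.1 and 9.34 CPM in the mutant libraries and 13.5 and 9.60 CPM in the wild-type libraries. The 2 mutant libraries enclosed the wild-type values, with a log2 fold change of 0.14 (standard error 0.25, adjusted p = 0.798 by edgeR). The peak over the upstream stretch itself (105450661 to 105451943) had 14.05 and 7.57 CPM in the mutant libraries and 11.8 and 9.80 CPM in the wild-type libraries (log2 fold change 0.00, standard error 0.26, adjusted p = 0.998 by edgeR), so that the mutant values again enclosed the wild-type values. The intragenic peak at 105520525 to 105522048, chosen after its values were seen as the strongest within the gene, had 37.4 and 42.1 CPM in the mutant libraries and 27.7 and 35.9 CPM in the wild-type libraries (log2 fold change 0.32, adjusted p = 0.255 by edgeR).

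Kcnd2, which encodes Kv4.2, the other Kv4 pore subunit, carried 5 peaks, and none passed. The peak at its start (chromosome 6, 21215104 to 21215846) had 10.4 and 7.19 CPM in the mutant libraries and 11.3 and 13.8 CPM in the wild-type libraries. Both mutant libraries were below both wild-type libraries, with a log2 fold change of -0.51 (standard error 0.24) that did not pass (adjusted p = 0.211 by edgeR). Left-out libraries gave -0.803 (without mutant replicate 1) to -0.272 (without mutant replicate 2). The peak with the smallest p lay 52630 bp into the gene (21267736 to 21268217), at 3.65 and 3.41 CPM in the mutant libraries and 6.90 and 6.24 CPM in the wild-type libraries (log2 fold change -0.90, standard error 0.28, adjusted p = 0.0652 by edgeR). Kcnip2 encodes KChIP2, which brings Kv4 channels to the cell surface, and none of its 8 peaks passed. Its start peak (chromosome 19, 45815022 to 45816583) had 16.73 and 14.95 CPM in the mutant libraries and 17.9 and 11.7 CPM in the wild-type libraries, so that the wild-type values enclosed the mutant values (log2 fold change 0.10, standard error 0.22, adjusted p = 0.837 by edgeR). The smallest p of this locus belonged to a peak within the neighbouring gene Armh3 (45825945 to 45826581). It had 18.4 and 14.1 CPM in the mutant libraries and 24.8 and 21.9 CPM in the wild-type libraries. Its log2 fold change was -0.52 (standard error 0.19, adjusted p = 0.107 by edgeR). Left-out libraries gave -0.725 (without mutant replicate 1) to -0.343 (without mutant replicate 2).

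Kcna5 encodes Kv1.5, the channel of the ultrarapid current. A peak 1935 bp downstream of the gene (chromosome 6, 126530063 to 126530616) fell to 5.78 and 3.79 CPM in the mutant libraries, against 11.2 and 9.19 CPM in the wild-type libraries. The groups did not overlap, and the log2 fold change was -1.09 (standard error 0.27, adjusted p = 0.0222 by edgeR), a call that was lost without mutant replicate 2 (0.0596), wild-type replicate 1 (0.161) or wild-type replicate 2 (0.0583). The peak over the start and the adjoining part of the gene (126534467 to 126535839), which contains the whole upstream stretch shown above, had 15.5 and 14.8 CPM in the mutant libraries and 23.3 and 20.1 CPM in the wild-type libraries. Both mutant libraries were again below both wild-type libraries, but the log2 fold change of -0.52 (standard error 0.18) did not pass (adjusted p = 0.0985 by edgeR).

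Kcnj2 encodes Kir2.1, the main channel of the inward rectifier current that sets the resting potential. A peak 4562 bp from the start, within the gene (chromosome 11, 111070393 to 111071060), fell to 6.14 and 6.18 CPM in the mutant libraries, against 13.75 and 14.04 CPM in the wild-type libraries. The libraries of a genotype were nearly equal, and the log2 fold change was -1.17 (standard error 0.23, adjusted p = 0.00586 by edgeR; 0.0519 without wild-type replicate 2). This peak held 6.91% and 9.37% of the locus's counts in the mutant libraries and 14.7% and 14.2% in the wild-type libraries. The much stronger peak at the start (111064665 to 111066805) had 47.6 and 34.9 CPM in the mutant libraries and 46.7 and 50.9 CPM in the wild-type libraries. There mutant replicate 1 lay between the wild-type libraries and mutant replicate 2 below them. The log2 fold change was -0.24 (standard error 0.16, adjusted p = 0.397 by edgeR). Left-out libraries gave -0.484 (without mutant replicate 1) to -0.037 (without mutant replicate 2).

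Kcnj3 and Kcnj5 encode GIRK1 and GIRK4, the subunits of the acetylcholine-gated channel. Of the 12 Kcnj5 peaks 8 had positive and 4 negative log2 fold changes, with a median of 0.05. Within Kcnj5 a very weak peak (chromosome 9, 32328845 to 32329120) had 6 and 5 counts in the mutant libraries and 40 and 49 counts in the wild-type libraries. The levels were 0.37 and 0.32 CPM in the mutant and 2.26 and 2.53 CPM in the wild type, a log2 fold change of -2.79 (standard error 0.50, adjusted p = 0.00350 by edgeR). It stayed called under each alternative that tested it, left-out libraries included, while a minimum mean of 2 CPM removed it before the test. The strongest peak at the Kcnj5 start (32342854 to 32343525) had 9.98 and 4.17 CPM in the mutant libraries and 6.11 and 6.40 CPM in the wild-type libraries. The mutant libraries lay on either side of the wild-type libraries, with a log2 fold change of 0.18 (standard error 0.32, adjusted p = 0.797 by edgeR). The peak that reaches into the upstream stretch (32343710 to 32344416), named like the one over the Kcnd3 stretch after its values were seen, had 7.72 and 5.49 CPM in the mutant libraries and 7.92 and 4.85 CPM in the wild-type libraries (log2 fold change 0.05, standard error 0.29, adjusted p = 0.941 by edgeR). There the wild-type values enclosed the mutant values. Kcnj3 had 3 peaks, and none passed. Its start peak (chromosome 2, 55435775 to 55436711) had 12.2 and 8.65 CPM in the mutant libraries and 11.3 and 9.96 CPM in the wild-type libraries (log2 fold change -0.03, standard error 0.23, adjusted p = 0.960 by edgeR). A peak upstream of that start, at -1302 bp measured to its midpoint (55434512 to 55434824), had 3.53 and 2.90 CPM in the mutant libraries and 5.15 and 5.06 CPM in the wild-type libraries (log2 fold change -0.66, standard error 0.30, adjusted p = 0.200 by edgeR). Both genes are expressed mainly in atria and conduction tissue, and peaks at markers of these were read beside them: the 5 atrial markers summed to 293.6 and 315.8 CPM in the mutant libraries and 258.1 and 282.3 CPM in the wild-type libraries, and the 6 sinoatrial and conduction markers to 237.5 and 205.9 CPM in the mutant libraries and 212.5 and 204.6 CPM in the wild-type libraries.

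**Figure D3:**
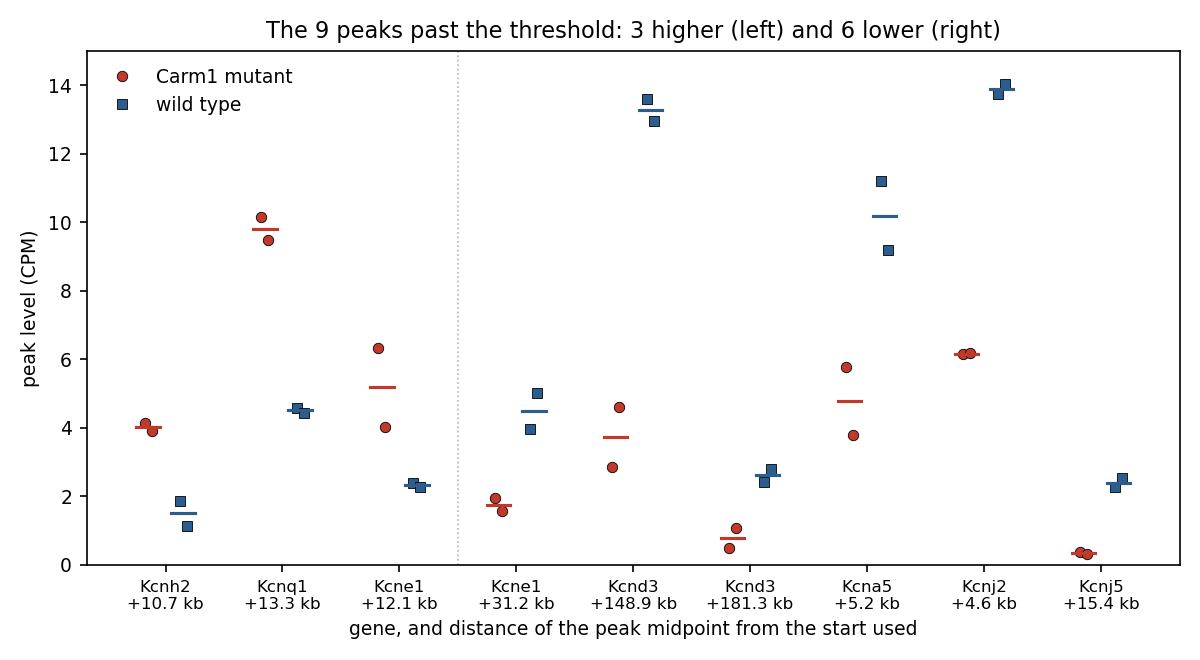
Level in CPM (vertical axis, from 0) of the 9 peaks past the threshold in each library, with red circles for Carm1 mutant and blue squares for wild-type libraries and bars for the means of 2 libraries. Labels give the gene and the distance of the peak's midpoint from the start, or from the lower-coordinate end for Kcnq1 and Kcne1; the 3 higher peaks lie at Kcnh2, Kcnq1 and Kcne1, and the groups overlap at none of the 9.

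None of the peaks past the threshold lay within 1 kb of a gene start, though the Kcne1 peak that rose lay 1111 bp from the higher-coordinate gene end. The levels of the called peaks differed widely, from the very weak Kcnj5 peak to the Kcnj2 peak. Their median level over the 4 libraries was 3.75 CPM, against 6.66 CPM over all 125 peaks and 5.54 CPM over all peaks of the series. The start was not known at Kcnq1 and Kcne1, where either gene end was used. The Kcnh2 start used lies inside the gene, so the peak over the higher-coordinate end of Kcnh2 was not counted as a start peak. With starts so defined, the strongest start peaks of the 10 genes had a median of 16.9 CPM, and none passed. Nor did any of the 16 peaks within 1 kb of a start, against 3.05% called higher and 2.45% lower over all peaks. At the strongest start peaks 6 log2 fold changes were positive and 4 negative, with a median of 0.07.

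Counts were also summed over all peaks of a gene's window, for these 10 genes and for every other protein-coding gene with a peak, 16983 in all. Over all genes 2.63% were called higher and 0.93% lower by edgeR at adjusted p under 0.05, and none of the 10 channel genes was. DESeq2 and limma voom also called none, and 4 of the 10 had an unadjusted p under 0.05 with edgeR (2 higher and 2 lower), against 11.9% of all genes with a higher and 5.91% with a lower sum. The sums of Kcnh2 were 321.7 and 275.1 CPM in the mutant libraries and 260.1 and 223.6 CPM in the wild-type libraries. The log2 fold change was 0.30 (standard error 0.09, adjusted p = 0.0811 by edgeR). With each library left out in turn it ran from 0.186 (without mutant replicate 1) to 0.419 (without wild-type replicate 1). The sums of Kcnq1 were 470.0 and 416.3 CPM in the mutant libraries and 389.2 and 356.7 CPM in the wild-type libraries. Their log2 fold change was 0.25 (standard error 0.09, adjusted p = 0.129 by edgeR). Left-out libraries gave 0.159 (without mutant replicate 1) to 0.334 (without mutant replicate 2). At both genes the mutant libraries lay above the wild-type libraries.

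Kcna5 summed to 39.6 and 39.4 CPM in the mutant libraries and to 58.2 and 48.9 CPM in the wild-type libraries, a log2 fold change of -0.44 (standard error 0.12) that lay just outside the threshold (adjusted p = 0.0589 by edgeR). It passed when only peaks within 5 kb were summed (log2 fold change -0.66, adjusted p = 0.0127 by edgeR) and with total-count scaling (0.0462). It did not pass over the gene body alone (-0.52, 0.0993) or in a 50 kb window (-0.21, 0.288). With each library left out in turn the log2 fold change ran from -0.555 (without wild-type replicate 2) to -0.303 (without wild-type replicate 1). Kcnj2 summed to 88.9 and 66.0 CPM in the mutant libraries and to 93.2 and 98.9 CPM in the wild-type libraries. Its log2 fold change was -0.31 (standard error 0.12, adjusted p = 0.181 by edgeR). Left-out libraries gave -0.542 (without mutant replicate 1) to -0.113 (without mutant replicate 2). For both genes the mutant libraries lay below the wild-type libraries. The log2 fold changes of the other sums were 0.17 at Kcne1, -0.07 at Kcnj5, -0.12 at Kcnip2, -0.13 at Kcnd3, -0.26 at Kcnj3 and -0.34 at Kcnd2, with edgeR adjusted p from 0.302 to 0.792. With each library left out in turn the sum of Kcnd2 ran from -0.62 to -0.112 and that of Kcne1 from 0.048 to 0.29. Both mutant libraries lay above both wild-type libraries at 3 of the 10 sums (29.5% of all genes) and below them at 5 (18.5% of all genes).

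Mutant replicate 1 had the higher sum of the 2 mutant libraries at each of the 10 genes, as it had at 55.2% of all genes, while wild-type replicate 1 was above wild-type replicate 2 at 5 of the 10, against 47.9% of all genes. Per kb of peak, the mean accessibility in the mutant lay between 9.12 CPM per kb at Kcnj3 and 20.5 at Kcnip2, and in the wild type between 10.6 at Kcnq1 and 22.2 at Kcnip2. Most of the Kcnip2 signal came from a peak at the neighbouring gene Oga, with a mean of 90.1 CPM over the 4 libraries.

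**Figure D4:**
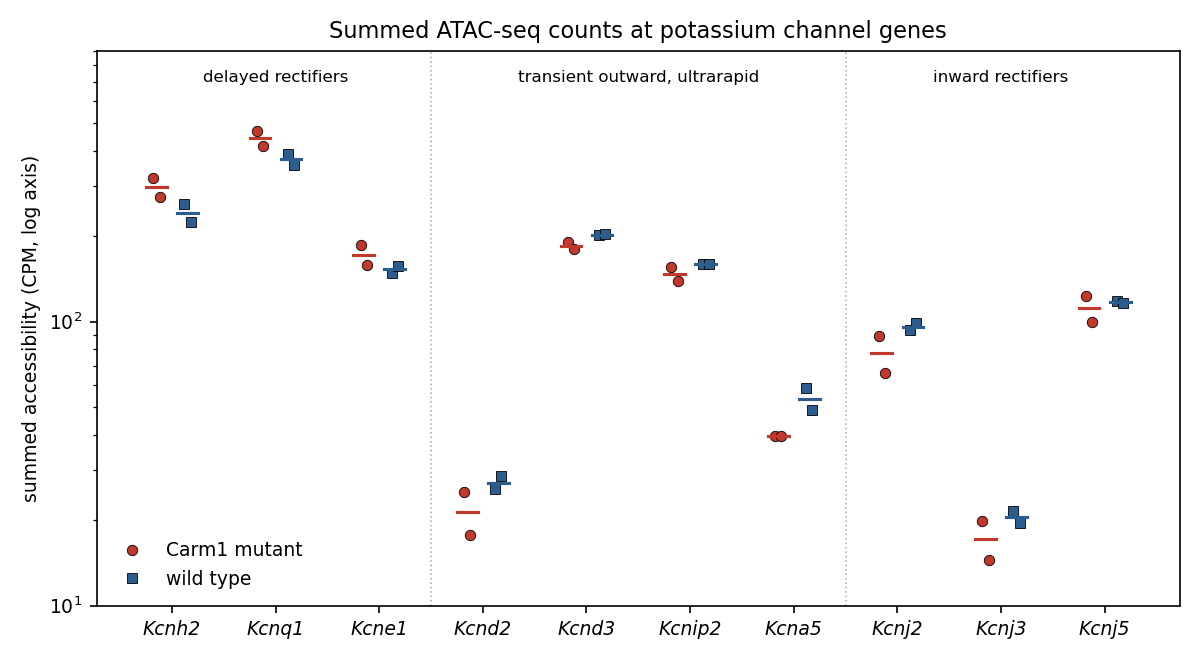
Summed accessibility of each gene's peaks in CPM (vertical log axis) in each library, with red circles for Carm1 mutant and blue squares for wild-type libraries and bars for the means of 2 libraries. The mutant libraries lie above the wild-type libraries at Kcnh2, Kcnq1 and Kcne1 and below them at Kcnd2, Kcnd3, Kcnip2, Kcna5 and Kcnj2, and none of the 10 differences passed the threshold.

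A wider list of cardiac potassium channel subunits and partners gave 263 peaks at 27 of 31 genes. Of these 12 rose (4.56%, against 3.05% of all peaks), 6 fell (2.28%, against 2.45%) and 245 did not pass, with a median log2 fold change of 0.12. Both mutant libraries lay above both wild-type libraries at 35.4% and below them at 17.5% of these peaks, against 25.8% and 25.7% of all peaks. Peaks that rose included those within Abcc9 (log2 fold change 1.30, adjusted p = 0.0199 by edgeR), which encodes the sulfonylurea receptor of cardiac ATP-sensitive channels, and at Kcnj14 (1.32, 0.0126), an inward rectifier gene. Dpp6, which encodes a partner of Kv4 channels, had 3 peaks that fell, with log2 fold changes of -1.33, -1.02 and -1.69. A peak near Kcnk3, the gene of the TASK-1 background channel (chromosome 5, 30628308 to 30629168), fell to 7.18 and 10.03 CPM in the mutant libraries, against 16.18 and 18.99 CPM in the wild-type libraries (log2 fold change -1.03, standard error 0.22, adjusted p = 0.0108 by edgeR).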

How the data were processed

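Hearts labelled P14 gave 4 ATAC-seq libraries, 2 per genotype. The authors deposited raw counts per peak for a common peak set, per the file headers. FastQC, Bowtie2 and the build mm10 are named in the submitters' processing notes. Not given in the sources used here are the peak caller, duplicate handling, the transposase shift and the coordinate base of the peaks, which could alter the set of counted regions or their counts.

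Peaks were tied to RefSeq genes of GRCm38.p6, the assembly of mm10, by overlap with the gene body or a gap of at most 20 kb, and a peak counted for every gene whose window held it. Starts and strand came from the RefSeq promoter table, and for Kcnq1 and Kcne1 either gene end was used. All peaks were fitted with edgeR 4.0.16 under R 4.3.3 (quasi-likelihood F test on genotype alone, TMM, filterByExpr, which removed 0 peaks, threshold 0.05 on the Benjamini-Hochberg adjusted p), and gene sums likewise with scaling from all peaks. CPM are counts over TMM-adjusted library sizes. The residual degrees of freedom were 2 and the common biological coefficient of variation 0.166 for peaks and 0.0831 for gene sums. Libraries of a genotype were not duplicates: chi-square over degrees of freedom was 5.76 in the mutant and 4.09 in the wild type. Named peaks were, per gene, the strongest within 1 kb of the start, the one with the smallest p and all past the threshold. Alternatives used DESeq2 1.42.0, limma 3.58.1, other scalings, filters, thresholds and windows, left-out libraries and a replicate block. The procedure was also run on simulated counts that gave every peak the same common biological coefficient of variation. That run cannot show how the calls behave where the spread differs between peaks. Tables were made with Python 3.11.15. The genes, classes and lists were chosen with earlier results of these data known.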

Additional observations from a re-analysis of the deposited data

How the results depend on the processing

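The 2 weakest called peaks rested on 5 to 54 counts a library, which limits their precision. With RLE or total-count scaling and with no filter all 9 called peaks were kept. DESeq2 kept 5, and counted 1 higher peak. At adjusted p under 0.1, 7 were higher and 10 lower, and a 50 kb window held 6 higher. Leaving out a library gave 0 to 15 higher and 2 to 10 lower peaks and a median log2 fold change of -0.064 (without mutant replicate 1) to 0.179 (without mutant replicate 2), and 2, 4, 7 and 8 of the 9 calls were kept without wild-type replicate 2, wild-type replicate 1, mutant replicate 1 and mutant replicate 2. The replicate numbers are not stated to pair the samples, and deviations of same-numbered libraries correlated at 0.108 across peaks. With the replicate block 8 peaks were higher and 10 lower, all 9 calls were kept, and the gene sums of Kcnh2 (adjusted p = 0.00388 by edgeR) and Kcnq1 (0.0197) were called higher and those of Kcna5 (0.0109) and Kcnj2 (0.0353) lower, 2 each way. Gene sums counted 1 lower (Kcna5) with total counts, 1 lower with a 5 kb window, 1 higher and 1 lower at adjusted p under 0.1, and 0 to 3 higher and 0 to 2 lower with a library left out. Fits without a library take the spread of a lone library from the other genotype. The cause of these shifts was not tested. Over the 22 named peaks and 10 gene sums, 376 of 434 alternatives kept direction and side of the threshold. In 12 the sign turned, none of them at a called result. With each library left out in turn the start peak of Kcnd3 ran from -0.305 to 0.482, that of Kcnj3 from -0.298 to 0.194, that of Kcnj5 from -0.586 to 0.672 and that of Kcnip2 from -0.175 to 0.445. The strongest gene-end peak of Kcne1 ran from -0.036 to 0.108 and the sum of Kcnj5 from -0.23 to 0.074. This Kcne1 peak was at -0.005 with total counts, the sum of Kcnd2 at 0.372 in a 50 kb window, and that of Kcnip2 at 0.059 both in the gene body and in a 5 kb window.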
